A study of Mus musculus with 9 samples.

Results

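The genes described here are 40 genes of the endoplasmic reticulum (ER) stress response and the integrated stress response in interstitial cells of mouse heart valves (VICs), which are fibroblast-like, kept in culture. They were chosen by symbol, as genes of these pathways. All 40 were found among the 51810 genes of the expression table, and all 40 passed the filter of a mean of at least 1 TPM that left 13495 genes to test. An unfolded protein response arm holds 23 of them (ER chaperones, disulfide isomerases, ER-associated degradation, and the stress sensors with Xbp1). An ATF4 arm holds the other 17 (transcription factors, feedback genes and amino acid enzymes and transporters).

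The VICs were isolated from C57BL/6J mice, from both the aortic and the mitral valve, and grown in serum-containing medium with insulin, EGF and basic FGF. The 3 Control libraries came from cells given buffer according to the treatment protocol, although another label calls them untreated. The 3 LDL libraries came from cells given low-density lipoprotein at 50 ug/mL, and the 3 oxLDL libraries from cells given oxidised low-density lipoprotein at 50 ug/mL, all for 24 h. No transgene or deletion is named for any group, the age and sex of the mice are not given in the sources used here, and the labels leave unsaid whether samples sharing a treatment came from different cultures or different animals. The p-values therefore measure only the spread among these samples, which may be technical.

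When unfolded proteins build up in the ER, the sensors IRE1 (Ern1), ATF6 and PERK (Eif2ak3) are set off. IRE1 splices the Xbp1 mRNA, and the resulting XBP1 protein and cleaved ATF6 raise transcription of chaperones such as BiP (Hspa5). PERK phosphorylates the initiation factor eIF2alpha, which lowers general translation while raising translation of ATF4, and other kinases reach ATF4 through the same factor when amino acids or haem run short. ATF4 then raises transcription of amino acid enzymes and transporters and of the pro-apoptotic factor CHOP (Ddit3). Splicing of Xbp1, cleavage of ATF6 and translation of Atf4 are not read out by a gene's total transcript level, which is what was measured.

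Several of the ER genes carry near their start the sequence through which ATF6 and XBP1 are known to act, and it is shown here for genes whose levels are described below. RefSeq promoters (GRCm38.p6, 250 bases before to 50 bases after each gene's start) were found for 36 of the 40 genes, the others being Atf6, Hyou1, Manf and Slc7a5. The ER stress response element ERSE, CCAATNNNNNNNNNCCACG searched on both strands, was found in 8 of the 20 promoters of the unfolded protein response arm and in 0 of the 16 of the ATF4 arm. It was found in 39 of 32851 promoters of the genome, or 0.119%. The 8 genes were Hspa5, Hsp90b1, Calr, Canx, Creld2, Dnajc3, Pdia6 and Syvn1, and Hsp90b1 held 2 copies. Among the chaperones with a promoter, Dnajb9, Dnajb11 and Sdf2l1 had no ERSE. "Start" here means the RefSeq start. The stretch before the start of Hspa5 is given in full, and 4 other genes with 15 bases on either side. Each is written 5′ to 3′ along the gene's own strand, and the capitals mark the ERSE.
Hspa5 (chr2:34771840-34772089, plus strand): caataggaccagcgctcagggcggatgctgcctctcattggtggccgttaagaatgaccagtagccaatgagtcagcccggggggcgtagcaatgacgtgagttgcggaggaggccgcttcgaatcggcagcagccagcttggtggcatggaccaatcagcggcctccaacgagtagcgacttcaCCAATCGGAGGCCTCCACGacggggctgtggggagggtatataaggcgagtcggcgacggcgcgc
Calr (chr8:84847060-84847108, minus strand): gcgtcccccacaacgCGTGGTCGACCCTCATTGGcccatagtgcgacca
Canx (chr11:50325785-50325833, minus strand): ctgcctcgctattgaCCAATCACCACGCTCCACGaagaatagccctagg
Pdia6 (chr12:17266476-17266524, plus strand): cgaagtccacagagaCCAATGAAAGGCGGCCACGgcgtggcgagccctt
Syvn1 (chr19:6046517-6046565, plus strand): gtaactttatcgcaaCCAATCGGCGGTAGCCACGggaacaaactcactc

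The element of Calr lies on the strand opposite to the gene, so its capitals read as the reverse complement. A shorter element that ends in the same CCACG, ERSE-II (ATTGGNCCACG, both strands), was found in Herpud1 and Dnajb11 and in 12 of the 32851 promoters (0.0365%). The element bound by ATF4 with C/EBP partners, TGATGNAA on both strands, is a loose pattern present in 1304 promoters (3.97%). It was found in Asns, Atf3, Chac1 and Trib3 of the ATF4 arm and in Herpud1. The sites of Asns, Atf3, Chac1 and Herpud1 lie before the RefSeq start, and they are shown because the ATF4 arm is read below through the same genes. The capitals mark TGATGNAA or its reverse complement, and in Herpud1 both elements are shown, with the ERSE-II on the second line. They do not overlap.
Asns (chr6:7693210-7693247, minus strand): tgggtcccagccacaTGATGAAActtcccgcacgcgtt
Atf3 (chr1:191183421-191183458, minus strand): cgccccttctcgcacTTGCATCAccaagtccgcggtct
Chac1 (chr2:119351034-119351071, plus strand): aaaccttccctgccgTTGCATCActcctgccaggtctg
Herpud1 (chr8:94386302-94386339, plus strand): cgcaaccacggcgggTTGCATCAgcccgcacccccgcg
Herpud1 (chr8:94386362-94386402, plus strand): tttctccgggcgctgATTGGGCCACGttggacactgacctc

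The RefSeq start is not always the outer end of the GENCODE gene (M21, GRCm38). It lies 120 bases downstream of that end in Hspa5, 45 bases in Asns and 34706 bases in Atf3, so the elements shown for these 3 genes lie inside the GENCODE gene. Those shown for Calr, Canx, Pdia6, Syvn1, Chac1 and Herpud1 lie outside it. A match of letters is a description and not a measured binding site. No match says only that these letters are not in the window.

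The libraries held 20985 to 21433 genes listed above 0. Levels are in TPM, a transcript abundance corrected for gene length and scaled to the same total in every library, and the number of reads behind a value is unknown. The 12 VIC and fibroblast markers all had a mean of at least 1 TPM and summed to 19536 to 23723 TPM. Markers of other cells were present too. Among them, the melanocyte list (4 genes) summed to 2.37 to 16.7 TPM and the epithelial list (4 genes, nearly all Krt18) to 3.55 to 11.7 TPM. The endothelial list (8 genes) summed to 130 to 338 TPM, the smooth muscle list (4 genes, nearly all Smtn) to 61.3 to 85.1 TPM, the cardiomyocyte list (6 genes, nearly all Tnnt2) to 9.64 to 63.2 TPM and the erythroid list (3 genes) to at most 2.72 TPM. The macrophage and leukocyte list (8 genes) summed to 218 to 427 TPM in Control, 219 to 616 TPM with LDL and 98.3 to 625 TPM with oxLDL. Most of it was Lyz2, at a mean of 338 TPM and the 96.7th percentile of genes tested. In this list the mean TPM was higher than in Control for 8 of 8 genes with LDL and 7 of 8 with oxLDL. The mean of log2(TPM + 1) was higher for 8 of 8 with LDL but only 4 of 8 with oxLDL. The ranges of the sums overlapped, and the part of this list in the differences given below was not tested. In such bulk samples, fewer cells of a type and less RNA per cell cannot be told apart. Differences between treatments are differences of mean log2(TPM + 1), a scale that makes those of low genes look smaller, and have limma's 95% interval, and means are given ± SD over n = 3 libraries.

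None of the 40 genes passed the threshold (limma, Benjamini-Hochberg adjusted p under 0.05) in any of the 3 comparisons. Of all genes tested, 0.333% passed it for LDL against Control, 0.0148% for oxLDL against Control and 0.104% for oxLDL against LDL, so a count of 0 in 40 is close to the background. With the replicate number as a block, again 0 of 40 passed in each comparison, beside 0.852, 0.126 and 0.259% of all genes in the same order. At an unadjusted p under 0.05 the count was 1 of 40 for LDL against Control (background 6.65%), 2 of 40 for oxLDL against Control (3.86%) and 2 of 40 for oxLDL against LDL (3.91%). The 5 results were a higher Ddit4 with LDL than with buffer or with oxLDL, a higher Slc3a2 and a lower Ddit3 with oxLDL than with buffer, and a higher Phgdh with oxLDL than with LDL. With the block the counts were 5, 4 and 4 of 40, beside 13.1, 9.08 and 8.51% of all genes. Besides the 5 results above, these were a higher Asns and a lower Manf, Pdia6 and Edem1 with LDL than with buffer. For oxLDL against buffer they were a lower Manf and Xbp1, and for oxLDL against LDL a higher Chac1 and Slc3a2. The intervals given in the text are those without the block. The smallest adjusted p of any of the 40 genes was 0.48, 0.79 and 1.0 in the same order of comparisons.

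**Figure D1:**
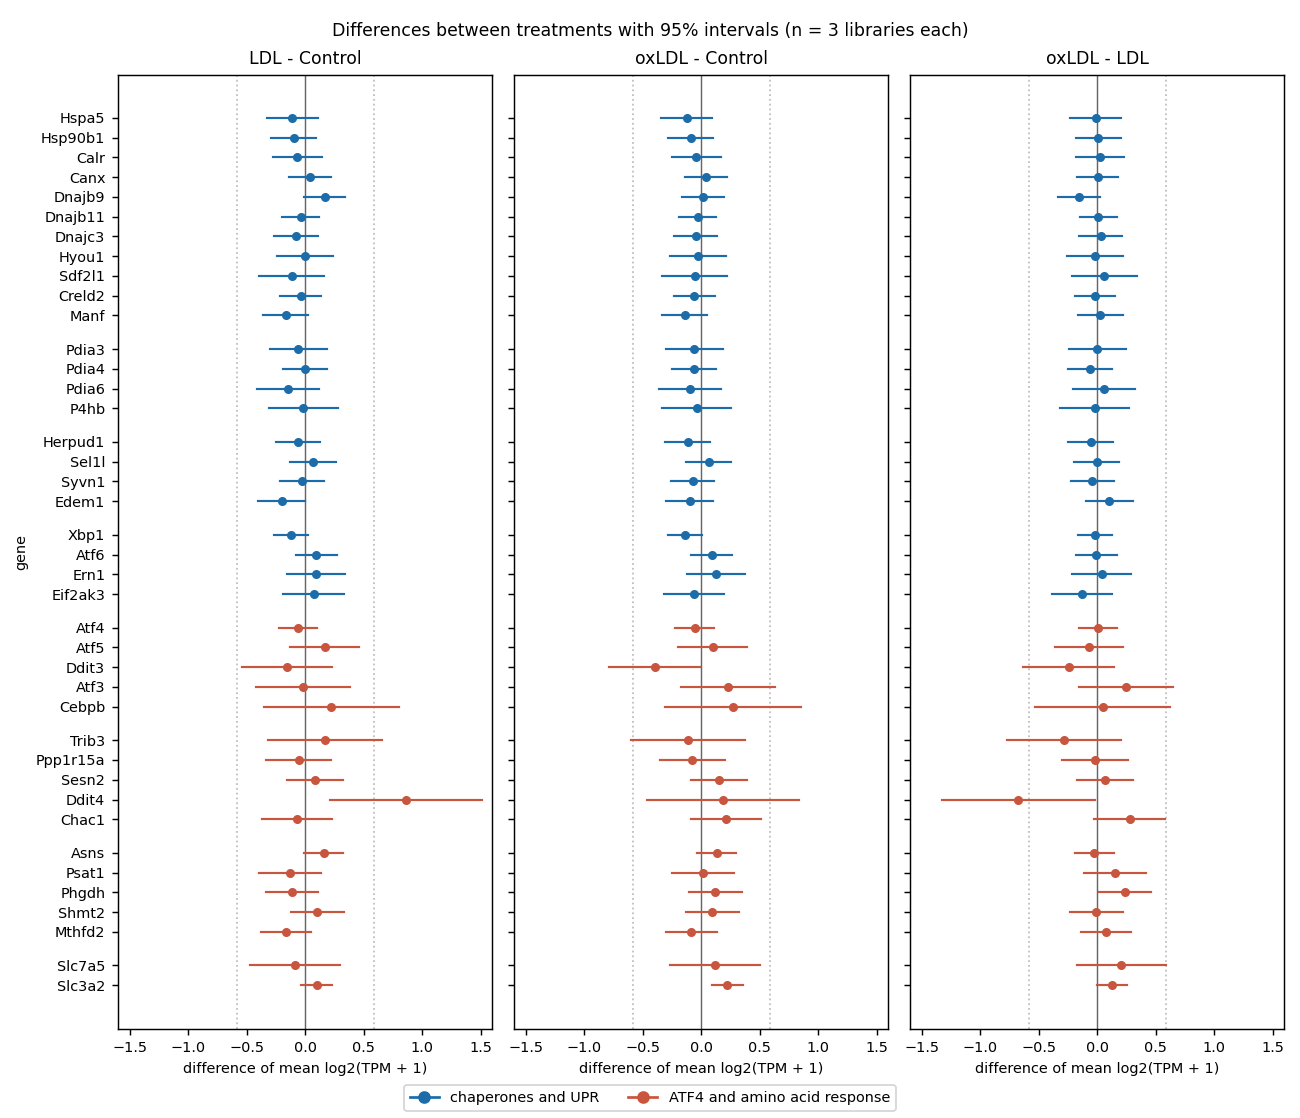
Difference of mean log2(TPM + 1) for each of the 40 genes (rows, grouped by role) in the 3 comparisons (panels), with limma's 95% interval as a bar. Dotted lines mark 1.5-fold of TPM + 1. All 23 genes of the unfolded protein response arm have intervals inside the dotted lines in every panel, and Ddit4 has the largest difference, at 0.86 for LDL against Control.

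The same intervals say how large a difference the spread among these samples leaves room for. That spread may be technical, and the intervals do not take the replicate numbers into account. They are not adjusted for the number of genes. The folds named here are folds of TPM + 1, which for low genes are smaller than folds of TPM. For each of the 23 genes of the unfolded protein response arm the interval lay within 1.5-fold in either direction in all 3 comparisons. The lowest bound in that arm was -0.41 and the highest 0.38. In the ATF4 arm, 14, 12 and 11 of 17 intervals lay within 1.5-fold in the comparisons in the order above. Those that reached past it were Cebpb, Trib3 and Ddit4 in all 3 comparisons, Ddit3 and Atf3 in both comparisons with oxLDL, and Slc7a5 for oxLDL against LDL. The interval of Ddit4 alone went past 2-fold, in both comparisons that involve LDL.

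Several ER chaperones were among the most abundant transcripts of these cells. Others were not, such as Dnajb9 at a mean of 27.1 TPM (59.9th percentile) and Sdf2l1 at 60.3 TPM (79.1st percentile). Calr, a calcium-binding chaperone of glycoproteins, had the highest mean of the 40 genes over the 9 libraries, 1499 TPM, at the 99.3rd percentile of genes tested. It was followed by Hspa5 at 1216 TPM and Hsp90b1 at 1178 TPM, the ER members of the HSP70 and HSP90 families. The disulfide isomerases P4hb and Pdia3 stood at 825 and 768 TPM. Together the 23 genes of the arm took 0.846% of all TPM in the Control group, and the 17 genes of the ATF4 arm took 0.127%.

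Hspa5, the chaperone most used as a readout of the unfolded protein response, stood at 1317, 1375 and 1156 TPM in Control replicates 1, 2 and 3. It stood at 1201, 1308 and 1060 TPM with LDL, and at 1141, 1224 and 1158 TPM with oxLDL. The 3 groups overlapped, and replicate 2 was the highest library of each treatment. The means were 1283 ± 114, 1190 ± 125 and 1174 ± 44.0 TPM. The difference was -0.11 (interval -0.33 to 0.11, adjusted p = 0.997) for LDL against Control and -0.12 (-0.34 to 0.09, adjusted p = 1.0) for oxLDL against Control. Hspa5 lies at chr2:34771970-34777547 on the plus strand (GENCODE M21, GRCm38), so the ERSE shown above lies inside that gene model and before the RefSeq start.

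The other 10 chaperones and co-chaperones gave differences of -0.17 to 0.17 for LDL against Control and -0.14 to 0.04 for oxLDL against Control. Manf, a secreted ER-resident survival factor, had the lowest of these values in both comparisons, from 507 ± 43.2 TPM in Control to 451 ± 26.6 with LDL and 460 ± 32.7 with oxLDL. Dnajb9, an HSP40 co-chaperone of Hspa5, had the highest value with LDL: it stood at 26.9, 27.1 and 23.9 TPM in Control, 29.8, 30.2 and 27.5 TPM with LDL and 25.7, 24.99 and 27.8 TPM with oxLDL. All 3 LDL libraries lay above all 3 Control libraries, with a difference of 0.17 (-0.01 to 0.34, adjusted p = 0.80), and the oxLDL libraries overlapped both groups. The 8 genes whose promoter holds the ERSE had a median difference from Control of -0.07 with LDL and -0.06 with oxLDL, with 7 of 8 means lower in each case. That median was 0.00 for oxLDL against LDL, with 3 of 8 lower. In the whole unfolded protein response arm 16 of 23 means were lower than in Control with LDL and 18 of 23 with oxLDL. Over all genes tested the shares were 50.5 and 50.9%. The 5 genes with the ATF4 element had medians of -0.02 with LDL and 0.13 with oxLDL against Control, with 3 and 2 of 5 lower. Genes with and without an element were not compared by a test. Neither comparison with Control is separate evidence beside the other, since they share the Control libraries.

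The 4 disulfide isomerases, which form and rearrange disulfide bonds in new proteins, gave differences of -0.15 (Pdia6) to 0.00 (Pdia4) for LDL and -0.09 (Pdia6) to -0.04 (P4hb) for oxLDL, each against Control. The 4 genes of ER-associated degradation, in which Sel1l and Syvn1 form the ubiquitin ligase complex, Herpud1 assists it and Edem1 sorts misfolded glycoproteins, ranged from -0.20 (Edem1) to 0.07 (Sel1l) for LDL. Their range for oxLDL against Control was -0.12 (Herpud1) to 0.06 (Sel1l). Edem1 stood at 67.3, 74.2 and 58.8 TPM in Control and at 55.1, 60.4 and 57.9 TPM with LDL, so that the groups overlapped by 1 LDL library (adjusted p = 0.76).

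Xbp1, whose mRNA the sensor IRE1 splices, was grouped here with the sensors and had the most even shift of that group. It stood at 127, 136 and 124 TPM in Control replicates 1 to 3, at 121, 121 and 115 TPM with LDL and at 113, 115 and 124 TPM with oxLDL. All 3 LDL libraries and all 3 oxLDL libraries lay below all 3 Control libraries, though the highest oxLDL library lay within 0.1 TPM of the lowest Control library. The differences were -0.12 (-0.26 to 0.03, adjusted p = 0.88) and -0.14 (-0.29 to 0.005, adjusted p = 1.0). Spliced and unspliced Xbp1 are not told apart by a gene-level value. Ern1 and Atf6 had slightly higher means with both lipoproteins, 15.02 ± 0.976 against 16.1 ± 1.76 and 16.6 ± 1.92 TPM for Ern1 and 20.5 ± 1.65 against 22.0 ± 0.631 and 21.9 ± 0.860 TPM for Atf6. Eif2ak3 stood at 15.8 ± 2.13, 16.6 ± 1.14 and 15.1 ± 1.49 TPM. The groups overlapped for all 3 sensors.

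Over the whole unfolded protein response arm, 16 of 23 means were lower with LDL and 18 of 23 lower with oxLDL than in Control, with medians of -0.04 and -0.06. Over all genes tested the share of lower means was 50.5 and 50.9%, and the medians were -0.0018 and -0.0028. Lower means were also common among ribosomal protein genes, with 67 and 71 of 95 tested. For mitochondrially encoded genes they were 12 and 15 of 15 tested. The cytosolic heat shock genes listed further on went the other way, with 4 and 1 of 17 lower. Differences between these lists were not tested. Between oxLDL and LDL 12 of 23 means were lower, with a median of -0.0039. Single libraries moved these counts. Without LDL replicate 3, 11 of 23 means were lower with LDL than in Control and the median was 0.0053, and without Control replicate 2 the count was 13 of 23 and the median -0.015. For oxLDL against Control, 14 of 23 means were lower without Control replicate 2, with a median of -0.02, and 19 of 23 without Control replicate 3, with a median of -0.12. For oxLDL against LDL, 20 of 23 means were lower without LDL replicate 3 and 7 of 23 without LDL replicate 2. These are descriptions of the lists, and 0 of the 23 genes passed the test. The 23 genes were measured in the same libraries, and much of their spread lay between replicate numbers, as described further on. The count of lower means therefore does not count 23 separate observations.

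**Figure D2:**
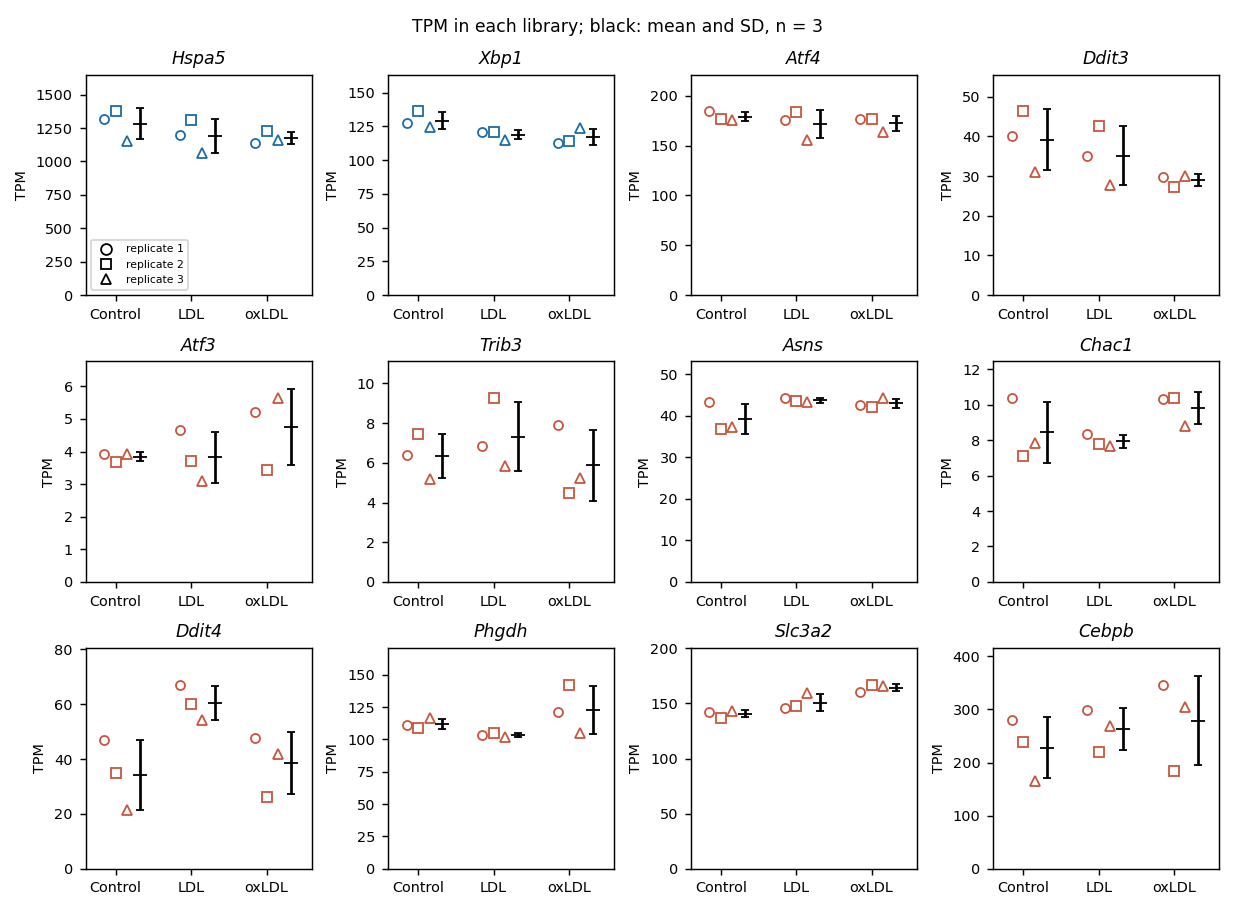
Level in each library (TPM, linear axis from 0) of 12 genes, with the marker shape giving the replicate number and the black bars the mean and SD of 3 libraries; blue genes belong to the unfolded protein response arm and red genes to the ATF4 arm. Hspa5 and Atf4 overlap between all treatments, the 3 LDL libraries of Ddit4 lie above every other library, and the 3 oxLDL libraries of Slc3a2 lie above every other library.

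In the ATF4 arm the central factor showed little difference. Atf4 stood at 185, 177 and 176 TPM in Control, 176, 184 and 156 TPM with LDL and 176, 177 and 164 TPM with oxLDL, so that all groups overlapped. The differences were -0.06 (-0.23 to 0.10) for LDL and -0.06 (-0.22 to 0.11) for oxLDL against Control, each with an adjusted p of 1.0. The transcript says nothing of translation, the step at which ATF4 is known to be controlled.

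Ddit3, which encodes CHOP, was one of the 2 genes with an unadjusted p under 0.05 for oxLDL against Control without the block. It stood at 40.1, 46.4 and 31.0 TPM in Control, at 35.0, 42.7 and 27.9 TPM with LDL and at 29.9, 27.4 and 30.1 TPM with oxLDL. The oxLDL libraries lay close together and below all 3 Control libraries, with replicate 3 of Control nearest to them, while the LDL libraries overlapped both. The means were 39.2 ± 7.71, 35.2 ± 7.40 and 29.1 ± 1.52 TPM, and oxLDL differed from Control by -0.40 (-0.79 to -0.01, adjusted p = 1.0). GENCODE holds 2 overlapping genes with the symbol Ddit3 on the plus strand, at chr10:127290774-127296288 and chr10:127290829-127293753, and the table's single row by symbol does not tell them apart. Of the exon bases of Ddit3, 3.97% overlap Mars on the other strand. Mars stood at 83.5 to 96.3 TPM, and reads from the overlap cannot be assigned to a strand because the kit does not mark it.

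Atf3, an early stress-induced factor, was the least abundant of the 40 genes, with a mean of 4.14 TPM at the 19.1st percentile. It stood at 3.93, 3.68 and 3.93 TPM in Control, 4.65, 3.72 and 3.1 TPM with LDL and 5.21, 3.42 and 5.64 TPM with oxLDL. In the oxLDL group 2 libraries were above every other library and replicate 2 was below every Control library (difference from Control 0.23, -0.17 to 0.63, adjusted p = 1.0). Cebpb, a partner of ATF4 on DNA, ranged from 166 to 346 TPM, with differences of 0.23 (-0.35 to 0.81) for LDL and 0.27 (-0.31 to 0.85) for oxLDL against Control. Its lowest library was Control replicate 3 and its highest oxLDL replicate 1. Exons of Tmem189 on the other strand cover 20.7% of its exon bases. Atf5, a mitochondrial stress factor controlled by translation like ATF4, stood at 74.8 ± 9.63, 83.7 ± 3.05 and 80.4 ± 14.2 TPM.

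Of the feedback genes, Ddit4 differed most. Ddit4 encodes REDD1, an inhibitor of the growth kinase complex mTORC1 that is induced by ATF4 and by hypoxia, glucocorticoids and DNA damage. It stood at 46.9, 34.7 and 21.2 TPM in Control, at 67.0, 59.9 and 54.3 TPM with LDL and at 47.6, 25.98 and 42.0 TPM with oxLDL. The LDL libraries lay above all 6 others, and the Control and oxLDL libraries overlapped. The means were 34.3 ± 12.8, 60.4 ± 6.34 and 38.5 ± 11.2 TPM, a ratio of 1.76 for LDL over Control. The difference was 0.86 (0.21 to 1.51, adjusted p = 0.48) for LDL against Control and -0.67 (-1.32 to -0.02, adjusted p = 1.0) for oxLDL against LDL. For oxLDL against Control it was 0.19 (-0.46 to 0.84). Ddit4 lies at chr10:59949669-59951834 on the minus strand.

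The other feedback genes did not share that pattern. Trib3, a pseudokinase that restrains ATF4 and CHOP, stood at 6.38, 7.44 and 5.19 TPM in Control, 6.86, 9.26 and 5.86 TPM with LDL and 7.91, 4.49 and 5.23 TPM with oxLDL, with overlap of all groups. Chac1, an enzyme that breaks down glutathione and a sensitive target of ATF4 and CHOP, stood at 10.4, 7.10 and 7.85 TPM in Control, 8.33, 7.78 and 7.67 TPM with LDL and 10.3, 10.4 and 8.80 TPM with oxLDL. Its oxLDL libraries lay above all 3 LDL libraries (0.28, -0.02 to 0.58, adjusted p = 1.0), and the Control libraries spanned both. Ppp1r15a (GADD34), which directs the phosphatase that reverses eIF2alpha phosphorylation, stood at 60.0 ± 8.93, 57.4 ± 4.19 and 56.7 ± 6.53 TPM. Sesn2, a leucine sensor upstream of mTORC1, stood at 13.0 ± 0.415, 13.9 ± 1.71 and 14.6 ± 1.40 TPM.

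Slc3a2 was the gene whose libraries were best ordered by treatment. It encodes the heavy chain (CD98) that pairs with Slc7a5 or Slc7a11 to form amino acid exchangers. It stood at 142, 137 and 143 TPM in Control, at 145, 147 and 159 TPM with LDL and at 160, 167 and 166 TPM with oxLDL. No 2 groups overlapped: each LDL library lay above each Control library and below each oxLDL library, the gap between the highest LDL and the lowest oxLDL library being 159.3 against 160.5 TPM. The means were 141 ± 3.24, 151 ± 7.53 and 164 ± 3.38 TPM, and oxLDL exceeded Control by 16.9%. The difference was 0.22 (0.09 to 0.35, adjusted p = 0.79) for oxLDL against Control, 0.10 (-0.03 to 0.23) for LDL against Control and 0.13 (-0.01 to 0.26) for oxLDL against LDL. Slc3a2 lies at chr19:8706882-8723369 on the minus strand. Its light chain Slc7a5, the leucine transporter LAT1, stood at 44.3 ± 7.70, 41.6 ± 6.19 and 48.4 ± 9.22 TPM, with overlap of all groups.

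Phgdh, the first enzyme of serine synthesis, had its highest mean with oxLDL. It stood at 111, 109 and 117 TPM in Control, 103, 105 and 102 TPM with LDL and 121, 142 and 105 TPM with oxLDL. The LDL libraries lay below all Control libraries and below all oxLDL libraries, but oxLDL replicate 3, at 105.2 TPM, was within 1 TPM of LDL replicate 2, at 104.9 TPM. The difference of oxLDL from LDL was 0.24 (0.01 to 0.46, adjusted p = 1.0), and that of LDL from Control was -0.11 (-0.34 to 0.11, adjusted p = 0.997). Phgdh lies at chr3:98313170-98339990 on the minus strand.

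Asns, which makes asparagine and carries the element shown above, stood at 43.3, 36.9 and 37.2 TPM in Control, 44.2, 43.6 and 43.2 TPM with LDL and 42.6, 42.0 and 44.2 TPM with oxLDL. Control replicate 1 lay among the treated libraries and the other Control libraries below them, with differences of 0.16 (-0.01 to 0.32, adjusted p = 0.79) and 0.13 (-0.03 to 0.30, adjusted p = 1.0). Psat1, the next enzyme of serine synthesis after Phgdh, stood at 161 ± 19.4, 146 ± 11.3 and 163 ± 21.4 TPM. The mitochondrial one-carbon enzymes Shmt2 and Mthfd2 went to opposite sides of Control with LDL, 77.3 ± 4.82 against 83.3 ± 8.96 TPM and 50.2 ± 5.91 against 44.7 ± 2.66 TPM, neither with a passing test.

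Counted by groups that do not overlap, which needs no model, LDL lay above Control in 3 of 40 genes (Dnajb9, Ddit4 and Slc3a2) and below in 2 (Xbp1 and Phgdh), beside 5.61 and 5.06% of all genes tested. For oxLDL against Control there was 1 gene above (Slc3a2) and 2 below (Xbp1 and Ddit3), beside 3.50 and 3.83%. For oxLDL against LDL there were 3 above (Chac1, Phgdh and Slc3a2) and 1 below (Ddit4), beside 4.11 and 4.20%. Each count is near its background. Across the ATF4 arm the median difference was -0.02 for LDL against Control, 0.12 for oxLDL against Control and 0.05 for oxLDL against LDL, with 8, 12 and 10 of 17 means higher. The first of these medians changed sign when single libraries or genes under 5 TPM were left out.

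**Figure D3:**
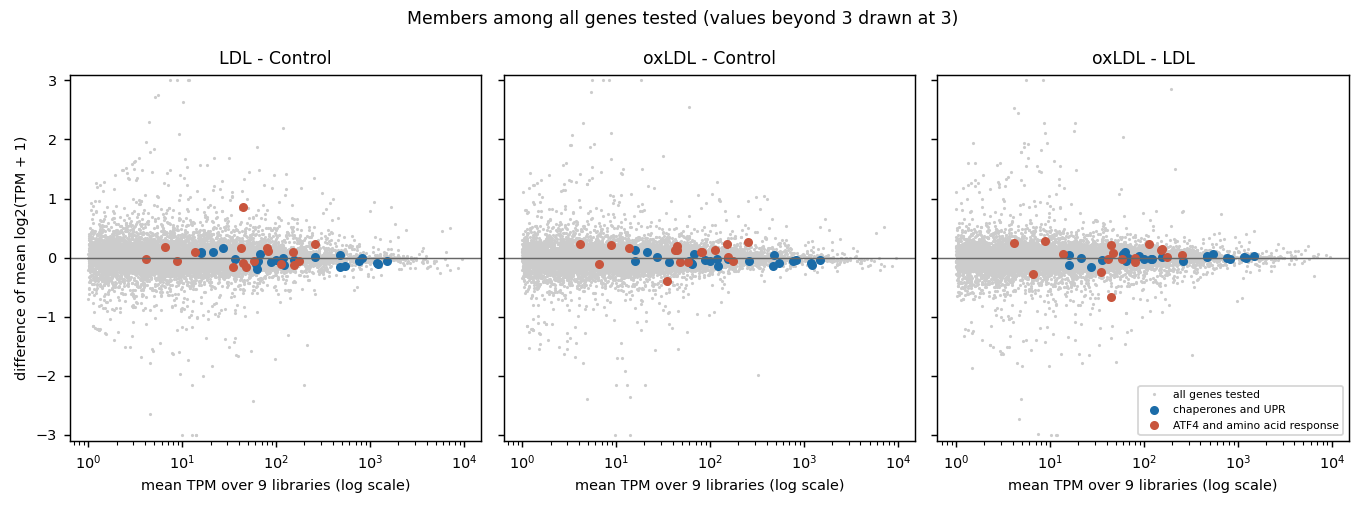
Difference of mean log2(TPM + 1) against mean TPM over 9 libraries (log axis) for the 13495 genes tested (grey) and the 40 stress-response genes (coloured by arm), in the 3 comparisons; values beyond 3 are drawn at 3. The coloured points lie along the zero line within the grey cloud at every level, with Ddit4 the farthest from it in both panels that involve LDL.

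The summed levels of the 2 arms can be set side by side. The unfolded protein response arm summed to 8692, 8876 and 7813 TPM in Control, 8426, 8439 and 7298 TPM with LDL and 8189, 8185 and 7812 TPM with oxLDL. The ATF4 arm summed to 1319, 1277 and 1218 TPM in Control, 1327, 1312 and 1316 TPM with LDL and 1412, 1318 and 1355 TPM with oxLDL. For both sums all treatments overlapped, the ATF4 arm in oxLDL and Control by less than 1 TPM.

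The ratio of the sums was 6.59, 6.95 and 6.42 in Control, 6.35, 6.43 and 5.55 with LDL and 5.80, 6.21 and 5.77 with oxLDL, so that Control and oxLDL did not overlap. Cebpb alone made up 13.6 to 24.5% of the ATF4 sum. Without Cebpb, a choice made after its values were seen, the ratio was 8.37, 8.54 and 7.43 in Control and 7.68, 7.22 and 7.44 with oxLDL, and the groups overlapped by Control replicate 3. No test was made of these sums, which weigh abundant genes most.

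For most of these genes the libraries of one replicate number, counted across the 3 treatments, stood apart more than the treatments did. The sum of squares of log2(TPM + 1) over 9 libraries was divided into shares between treatments, between replicate numbers and the rest. The median share was 49.2% between numbers and 18.7% between treatments over the 40 genes, against 44.2 and 16.9% over all genes tested. In the unfolded protein response arm it was 58.9 and 13.5%, and in the ATF4 arm 30.5 and 26.6%. The share between numbers was the larger one in 27 of 40 genes (67.5%), and in 69.7% of all genes.

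P4hb, the beta subunit of prolyl 4-hydroxylase needed for collagen, was the extreme case: 94.4% of its spread lay between numbers and 1.12% between treatments. It stood at 971, 933 and 919 TPM in the libraries numbered 1, at 805, 809 and 757 TPM in those numbered 2 and at 735, 738 and 763 TPM in those numbered 3, each in the order Control, LDL, oxLDL. Number 1 was thus the highest library in every treatment, by more than any treatment differed from another. For the HSP70-related chaperone Hyou1 the share between numbers was 91.5%, with number 2 highest and number 1 lowest in every treatment. Slc3a2 was the reverse case, with 84.4% between treatments and 8.08% between numbers, the highest treatment share of the 40 genes.

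The same number gave the lowest library in all 3 treatments for 15 of 40 genes (37.5%, against 34.7% of all genes). That number was 3 for Hsp90b1, Calr, Canx, Sdf2l1, Pdia3, Pdia6, Atf4 and Atf5, which are 20.0% of the 40 genes, whereas it was 3 for 4.09% of all genes tested. For the other 7 genes it was number 1, the commonest case in all genes (22.5%). The summed ribosomal protein transcripts were also lowest in number 3 of every treatment, at 136601, 134833 and 129274 TPM in Control, LDL and oxLDL. The summed mitochondrially encoded transcripts were highest there, at 32461, 30094 and 32286 TPM. The endothelial list was highest in number 1 of every treatment, at 301, 338 and 318 TPM, as P4hb was. So was the cardiomyocyte list, at 63.2, 38.85 and 32.7 TPM. The macrophage and leukocyte list was lowest in number 2 of every treatment, at 218, 219 and 98.3 TPM. The part of these in the spread of the 40 genes was not tested.

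**Figure D4:**
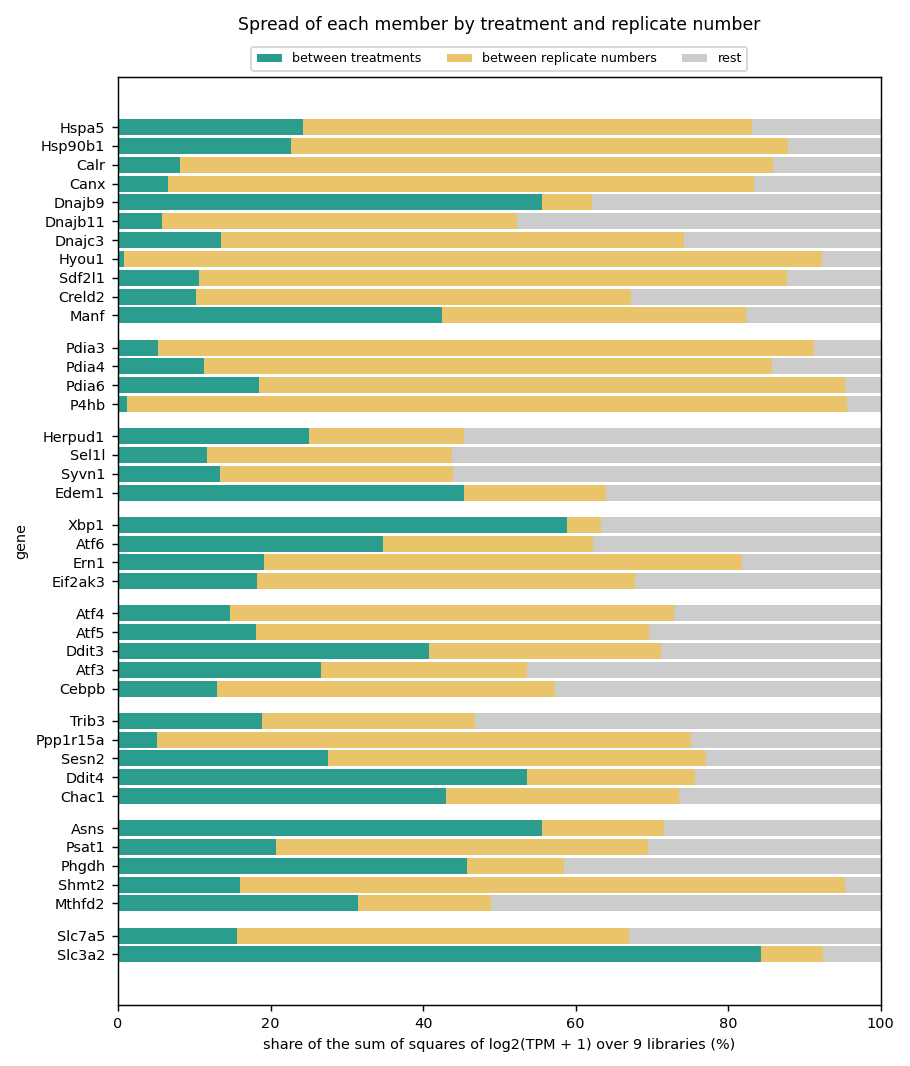
Share of each gene's sum of squares of log2(TPM + 1) over 9 libraries (percent, stacked to 100) that lies between treatments, between replicate numbers and in neither. Most ER chaperones and isomerases are filled by the share between numbers, up to 94.4% in P4hb, while Slc3a2, Xbp1, Dnajb9 and Asns are filled most by the share between treatments.

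The pathway was also read through genes outside the 40. Of 37 other unfolded protein response genes, 36 were tested (Derl3 was under 1 TPM), and 0 passed in any comparison with or without the block. At an unadjusted p under 0.05 there were 2 of 36 with LDL and 2 with oxLDL against Control, and 0 between the lipoproteins, beside 6.65, 3.86 and 3.91% of all genes. With the block there were 4, 3 and 1 of 36, beside 13.1, 9.08 and 8.51%. Their median differences were -0.02, -0.05 and -0.03 in that order. The genes with the smallest p were Ero1l, Creb3 and Fkbp2. Ero1l, the oxidase that recharges disulfide isomerases, stood at 33.1, 32.3 and 32.4 TPM in Control, 36.0, 40.7 and 39.0 TPM with LDL and 35.9, 35.2 and 35.7 TPM with oxLDL, so that every treated library lay above every Control library. LDL differed from Control by 0.23 (0.09 to 0.38, adjusted p = 0.34). Creb3, a membrane-bound transcription factor, was at 106 ± 6.06 TPM in Control and 92.0 ± 7.08 TPM with oxLDL (-0.20, adjusted p = 1.0), and Fkbp2, an ER prolyl isomerase, was at 110 ± 12.3 TPM in Control and 93.0 ± 4.11 TPM with LDL (-0.23, adjusted p = 0.70).

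Of 42 other ATF4 and amino acid response genes, 40 were tested (Slc7a3 and Fgf21 were under 1 TPM), and again 0 passed with or without the block. At an unadjusted p under 0.05 there were 4, 2 and 2 of 40, and with the block 8, 2 and 5 of 40, beside the same shares of all genes as above. Their median differences were 0.02, 0.02 and -0.01. The genes with the smallest p were Slc7a11, Gdf15 and Slc38a2. Slc7a11, the cystine transporter that pairs with Slc3a2 and is also a target of NRF2, stood at 5.26, 4.12 and 7.72 TPM in Control, 7.39, 7.52 and 13.6 TPM with LDL and 12.1, 12.8 and 12.4 TPM with oxLDL. The oxLDL libraries lay above all 3 Control libraries, with a mean 2.18 times that of Control (1.04, 0.49 to 1.59, adjusted p = 0.64), and the LDL libraries overlapped both groups.

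Gdf15, a secreted stress cytokine, stood at 19.7, 17.1 and 15.3 TPM in Control, 25.4, 26.8 and 23.5 TPM with LDL and 28.1, 21.8 and 19.8 TPM with oxLDL. All 6 treated libraries lay above the Control libraries, oxLDL replicate 3 within 0.1 TPM of the nearest. The difference was 0.52 (0.21 to 0.83, adjusted p = 0.28) for LDL and 0.39 (0.08 to 0.70, adjusted p = 1.0) for oxLDL. Slc38a2, a neutral amino acid transporter that ATF4 is known to raise, was lower with LDL. It stood at 149 ± 7.81 TPM, against 166 ± 2.09 in Control and 163 ± 2.43 TPM with oxLDL. The difference of LDL from Control was -0.15 (-0.28 to -0.03, adjusted p = 0.59). Within the amino acid genes the lower mean of Slc38a2 with LDL and the higher mean of Slc7a11 thus lay on opposite sides of Control.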

How the data were processed

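RNA sequencing gave 9 VIC libraries, 3 per treatment. The authors deposited TPM values, made with STAR and RSEM 1.3.1 on the build mm10 per the submitters' processing notes. The sources used here do not give the annotation. Per the labels, libraries came from amplified cDNA with an unstranded kit. Columns summed to 999998.81 to 1000000.43, so depth is unknown and no counting interval is given. 0 columns were left out.

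Values were analysed as log2(TPM + 1) in the 13495 genes whose mean reached 1 TPM. The tool was limma 3.58.1 (R 4.3.3), with a linear model per gene and an empirical Bayes prior that depends on the mean. Tests were two-sided, Benjamini-Hochberg adjusted over all genes tested, threshold 0.05. The spread was estimated jointly over all 9 libraries (6 residual degrees of freedom, 4 with a replicate block). Every p given is limma's. A permutation of 3 against 3 libraries cannot go below 0.1, so none was run. The procedure was also run on simulated data with independent noise in each library. Those data held no effect of the replicate number, so the run does not test the procedure under such an effect. Motifs were matched by exact letters in RefSeq promoters, and positions and exon overlaps came from GENCODE M21 (GRCm38).

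The titles number the replicates. Across genes, deviations from the treatment mean had correlations of 0.172 to 0.497 between same-numbered libraries (9 pairs) and of -0.309 to 0.13 between the rest (18 pairs). The numbers thus pair the libraries by this check, and the labels name no common culture or day for them.

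The 40 genes and the other lists were chosen with earlier results of these data known. Full values are given for each gene with an unadjusted p under 0.05 without the block. They are also given for Hspa5, Xbp1, Atf4, Ddit3, Atf3, Trib3, Asns and Chac1 whatever their result. Up to 3 genes with the smallest p of each list of other genes are given too. Other genes named with values in each library (Dnajb9, Edem1, P4hb) were chosen after their values were seen.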

Additional observations from a re-analysis of the deposited data

How the results depend on the processing

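Pseudocounts of 0.1 and 5, no filter, a filter at a mean of 5 TPM (which left 39 of the 40 genes), median-ratio scaling, quantile normalization, a fit on only the 6 libraries of a comparison, and leaving out each library were tried. The count of stress-response genes past the threshold was 0 in every comparison under each of them, and 0 with the replicate block, which changed no call. The 5 differences with an unadjusted p under 0.05 kept their sign under all of these, with adjusted p never under 0.168. Leaving out single libraries moved Ddit4 for LDL against Control between 0.57 and 1.12, and Phgdh for oxLDL against LDL between 0.13 and 0.34.

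The median of the ATF4 arm moved more. With the filter at 5 TPM it was 0.016 (LDL against Control) and 0.026 (oxLDL against LDL), a filter that removes only Atf3 from the arm. With single libraries left out it ranged from -0.019 to 0.058 for LDL against Control, from 0.044 to 0.12 for oxLDL against Control and from 0.0089 to 0.073 for oxLDL against LDL. The cause was not tested. Without Cebpb, an alternative chosen after seeing the data, the mean ratio of the summed arms in oxLDL minus Control was -0.67, against -0.73 with it. Unknown depth and 3 libraries per treatment limit what could be called. The widest intervals were those of Ddit4 and Cebpb, at means of 44.4 and 256 TPM, followed by the low genes Trib3 and Atf3.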

Other observations

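Folding genes of other compartments were listed after the values of the 40 genes had been seen, to set beside the ER genes. Of 17 cytosolic heat shock genes, 0 passed the test in any comparison (limma, with or without the replicate block), with 2, 2 and 1 at an unadjusted p under 0.05 for LDL and for oxLDL against Control and between the lipoproteins, in that order, beside 6.65, 3.86 and 3.91% of all genes tested. With the block there were 5, 3 and 2 of 17, beside 13.1, 9.08 and 8.51%. Their median log2 differences were 0.10, 0.10 and 0.01, with 13, 16 and 10 of 17 means higher, beside 49.4, 49.0 and 50.3% of all genes tested. The first 2 comparisons share the Control libraries, and no difference between this list and the ER genes was tested. As for the ER genes, the counts do not count 17 separate observations, and they were not repeated without single libraries. Stip1 was lowest in number 1 of every treatment, at 185, 206 and 211 TPM in Control, LDL and oxLDL. Hspb1 was highest there, at 197, 205 and 224 TPM. Hspa4l, a cytosolic co-chaperone of the HSP110 family, had the smallest p. It stood at 21.5, 19.3 and 22.1 TPM in Control, 25.96, 29.0 and 29.9 TPM with LDL and 24.1, 19.9 and 23.0 TPM with oxLDL. The LDL libraries lay above the other 6, with a difference from Control of 0.41 and an adjusted p of 0.22. The stress-inducible Hspa1a stood at 8.54 to 11.1 TPM and Hspa1b at 34.4 to 41.6 TPM in all 9 libraries.

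Of 12 mitochondrial chaperone and protease genes, 0 passed the test, with 1, 0 and 0 at an unadjusted p under 0.05, and 2, 1 and 1 with the block, beside the same shares of all genes. Their median differences were 0.03, 0.02 and 0.00.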
